A study of Rattus norvegicus with 6 samples.

Results

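Vcan, Trps1, Prdm1, Corin, Prom1, Fap, Dpp4 and Thy1 are 8 genes used as markers of the dermal papilla, of its embryonic forerunner the dermal condensate, and of the dermal fibroblasts around them. They were chosen by gene symbol: each has exactly 1 probe set whose platform annotation gives a single symbol, so 8 of the 18166 genes of the array table are described here and no choice between probe sets was needed. The cells were SKPs (skin-derived precursors, which grow as floating spheres from back skin) and NSCPs (nerve-derived Schwann cell precursors, cells of the glial lineage grown from sciatic nerve), both from newborn wild-type Sprague-Dawley rats. Each culture was represented by 3 arrays, every one from its own isolate. The labels' protocols, which run both media together in 1 passage, were read as EGF at 20 ng/ml with FGF2 at 40 ng/ml for SKPs. NSCPs were read as kept with forskolin at 5 μM and neuregulin-1β at 25 ng/ml, on poly-D-lysine (30 μg/ml) with laminin (4 μg/ml). Tissue, medium and growth form differ together and cannot be told apart. The labels give no purification step for either culture and do not say how many pups went into an isolate.

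The dermal papilla is the cluster of mesenchymal cells at the base of the hair follicle that instructs the epithelium above it to form and regrow hair. It develops from the dermal condensate, fibroblasts that gather under the hair placode, stop dividing and switch on signalling genes of the Wnt, FGF, BMP and Hedgehog pathways. Versican (Vcan) is the classical matrix marker of the condensate and of the growing papilla, and Corin and prominin-1 (Prom1, also CD133) are surface markers used to sort papilla cells from mouse skin. Prdm1 (Blimp1) and Trps1 are transcriptional repressors of the same mesenchyme, whereas Fap, Dpp4 (CD26) and Thy1 (CD90) are surface proteins of fibroblasts more broadly. SKPs have been described as related to the papilla, and Schwann cells are not known for these markers as a set.

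Values are log2 expression per array. A level is called within background when a group mean does not exceed 5.50, the level below which 95% of 1344 olfactory or vomeronasal receptor genes lay on average, genes that these cells should not express. Genes are called lower or higher in NSCPs at an adjusted p under 0.05 in limma with Benjamini-Hochberg adjustment over all 18166 genes.

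In SKPs 6 of the 8 markers stood above background, and these 6 were the ones called lower in NSCPs: Vcan, Fap, Thy1, Trps1, Prdm1 and Corin. No marker was called higher in NSCPs by limma, and 0 of 8 were higher where p was left unadjusted at 0.05. Over all genes 18.6% were called lower, 25.2% higher and 43.7% in either direction. Counts of called genes in the lists further below stand beside these shares. With arrays centred on their medians, 8148 of the 18166 genes were called higher and 2704 lower. List counts given for centred arrays stand beside those. Against a 2-fold change tested directly (limma's treat), 5 of the 8 markers passed, all except Corin, Prom1 and Dpp4, where 9.68% of all genes did. The median difference of the 8 markers was -3.27 on the log2 scale, against 0.14 for all genes. The arrays of the groups did not overlap for 7 of the 8 markers (all but Dpp4), and for 56.6% of all genes. In NSCPs Trps1 and Thy1 kept a mean above background. The NSCP mean of Vcan, 5.55, exceeded the background of 5.50 only narrowly, and its NSCP array 3, at 5.39, lay below. In RNA from whole cultures, fewer cells that express a gene and less RNA per cell cannot be told apart.

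**Figure D1:**
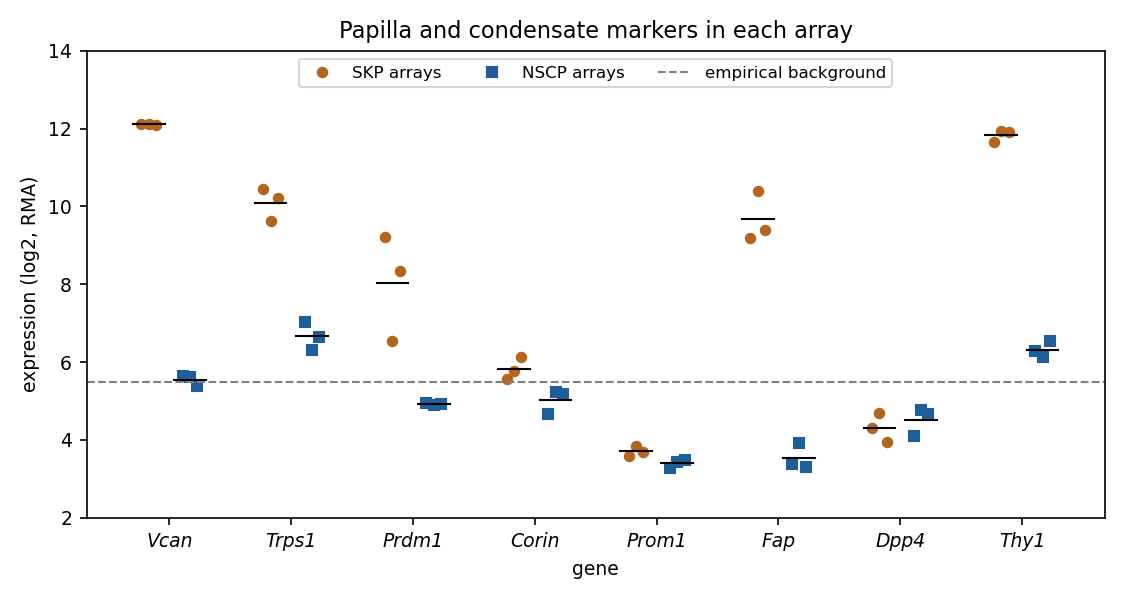
Log2 expression of the 8 markers (x axis) in each array, with SKP arrays as circles, NSCP arrays as squares, group means as bars and the empirical background as a dashed line. Vcan, Thy1, Trps1, Fap and Prdm1 lie well apart between the groups, Corin lies close to the background in both, and Prom1 and Dpp4 lie below it in all 6 arrays; heights of different genes are not comparable, because probe sets differ in their response.

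**Figure D2:**
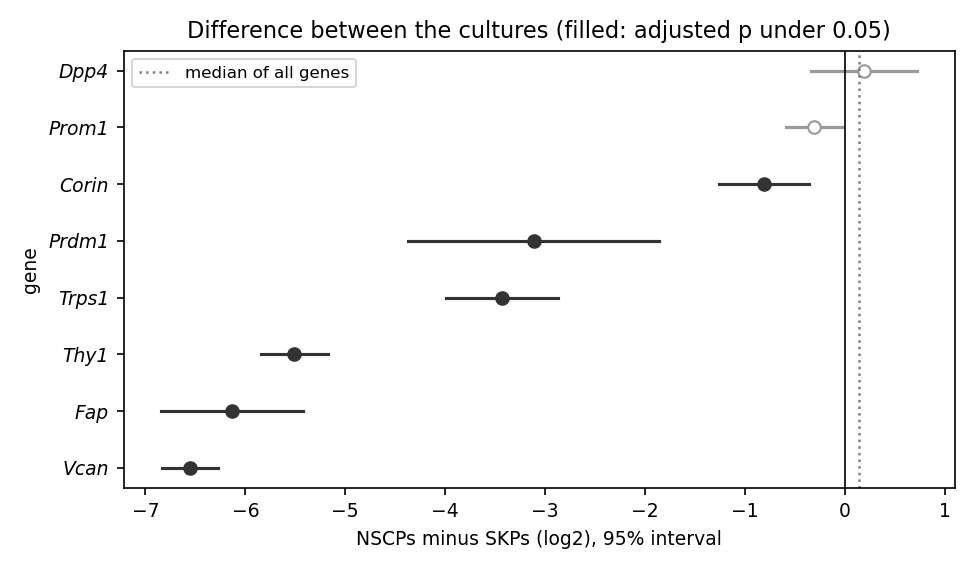
Difference between the cultures (NSCPs minus SKPs, log2) for each marker, with the 95% interval of the fit; filled points passed an adjusted p of 0.05 and open points did not. The differences run from -6.55 for Vcan to 0.19 for Dpp4, the interval of Prdm1 is the widest, and the dotted line is the median of all genes at 0.14.

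Promoter windows from RefSeq (rat build GRCr8) matched 6 of the 8 markers, the others being Trps1 and Thy1. Windows of 3 markers are shown, because Vcan and Fap had the largest falls, and Dpp4, the relative of Fap that lies near it in the genome, stayed within background. Each runs 5′ to 3′ on the strand of its gene and holds the 250 bases before an annotated start: Vcan at chr2:22595956-22596205, Fap at chr3:67616092-67616341 and Dpp4 at chr3:67452423-67452672, all on the minus strand. Capitals mark TATAA (TATA box), GATAA (the core read by GATA factors and by the GATA-type zinc finger of Trps1), GAAAG (the core of Prdm1 sites) and CTTTGA (TCF and LEF factors), on either strand.
Vcan: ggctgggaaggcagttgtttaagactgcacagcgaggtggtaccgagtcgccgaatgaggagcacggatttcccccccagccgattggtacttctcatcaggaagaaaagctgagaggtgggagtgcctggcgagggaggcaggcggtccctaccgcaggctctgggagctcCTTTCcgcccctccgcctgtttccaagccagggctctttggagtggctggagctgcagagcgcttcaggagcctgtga
Fap: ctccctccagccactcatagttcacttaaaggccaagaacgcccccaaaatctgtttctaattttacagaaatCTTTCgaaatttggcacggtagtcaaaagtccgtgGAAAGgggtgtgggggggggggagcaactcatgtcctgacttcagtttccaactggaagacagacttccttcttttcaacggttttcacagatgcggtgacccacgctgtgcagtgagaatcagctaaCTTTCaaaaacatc
Dpp4: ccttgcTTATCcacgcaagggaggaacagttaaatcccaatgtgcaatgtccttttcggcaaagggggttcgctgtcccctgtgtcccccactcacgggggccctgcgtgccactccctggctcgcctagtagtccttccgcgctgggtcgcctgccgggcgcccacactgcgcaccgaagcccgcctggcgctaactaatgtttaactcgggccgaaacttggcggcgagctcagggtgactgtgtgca
The window of Vcan held 1 GAAAG match, on the opposite strand and beginning 78 bases before the start, and that of Fap held 3, the nearest beginning 14 bases before it. Dpp4 had no GAAAG and a single GATAA, 244 bases upstream. CTTTGA was in none of the 3 windows. Among markers whose windows are not shown, Corin and Prdm1, both lower in NSCPs, had no GAAAG. A window of Prom1, which was not called, held 2 GAAAG matches, and its other window held none. Among 33469 RefSeq windows of this length 51.6% held GAAAG, 23.5% GATAA, 24.0% TATAA and 13.9% CTTTGA, so matches of this kind are common. The windows also differed in CpG sites, with 12 for Vcan, 7 for Fap and 19 for Dpp4 against a median of 5 over all windows. A second annotated start of Vcan, downstream of the first, had a TATAA match beginning 32 bases before it.

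Vcan encodes the large chondroitin sulfate proteoglycan that fills the loose matrix of the condensate. Its level was 12.12, 12.11 and 12.09 in the 3 SKP arrays and 5.66, 5.62 and 5.39 in the NSCP arrays. SKPs were therefore uniformly high, and every NSCP array lay close to the background. The fall was 93.9-fold (difference -6.55, SE 0.12, adjusted p = 2.15e-08 in limma), with a 95% interval from 77.5-fold to 114-fold. Because the NSCP level lies at the background, the size of this fold rests on that floor. The SKP isolates differed from each other by only 0.03, and 1.57% of the 11871 genes above background in SKPs had a smaller SD over those arrays.

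Versican works in a complex with hyaluronan, which the hyaluronan synthases make, with link proteins that fasten it, and with the receptor Cd44, and ADAMTS proteases cleave it. These partners did not follow Vcan as a group: of 16 measured, 6 were lower and 5 higher in NSCPs (8 higher with each array centred on its median), with a median difference of 0.23. Without centring, the shares over all genes were 18.6% lower and 25.2% higher. With it, 8148 of the 18166 genes were higher and 2704 lower. The link protein gene Hapln1 fell from 8.35 ± 0.80 in SKPs to 4.08 ± 0.26 in NSCPs (SD, n = 3 each), a level within background, so the size of its fall rests on that floor. The synthase Has2 was lower by a difference of -1.41 and remained at 8.33 ± 0.18 (SD, n = 3) in NSCPs, whereas Has1 was higher by 1.14 from a level within background. Cd44 was higher by 0.92, and the versican-cleaving protease genes went both ways, with Adamts4 at 0.81 and Adamts5 at -1.04; these last 3 genes were chosen after their values were seen. The sister proteoglycans of versican, Acan, Bcan and Ncan, had differences of 0.18, 0.47 and 0.17, of which Bcan passed in limma. Bcan was within background in SKPs (5.21) and just above it in NSCPs (5.67), and Acan was within background in both. These sister genes were named for their family, outside the rule for named genes and with their values seen.

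Trps1 encodes a GATA-type zinc finger repressor whose loss in people causes sparse hair and abnormal digits. It stood at 10.45, 9.62 and 10.21 in SKPs and at 7.03, 6.31 and 6.64 in NSCPs. Every SKP array lay far above every NSCP array, and all NSCP arrays were above background. The fall was 10.8-fold (difference -3.43, SE 0.25, adjusted p = 8.82e-06 in limma). None of the 6 GATA factor genes themselves passed in limma (2 of 6 were higher where p was left unadjusted at 0.05), and their median difference was 0.22; with arrays centred on their medians 3 of them were higher. Gata6, the one with the highest mean, stood at 6.73 ± 0.06 in SKPs and 6.70 ± 0.19 in NSCPs (SD, n = 3 each; difference -0.03, 95% interval from -0.33 to 0.27).

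Prdm1 encodes the repressor Blimp1, which marks precursors of the condensate and papilla, and is also made in macrophages, lymphocytes and sebaceous and upper epidermal cells. The NSCP arrays were nearly alike at 4.95, 4.91 and 4.92, within background. The SKP arrays were not, at 9.22 in isolate 1, 6.55 in isolate 2 and 8.34 in isolate 3. All 3 exceeded every NSCP array, but isolates 1 and 2 differed 6.37-fold from each other, and 99.8% of the genes above background in SKPs had a smaller SD. The fall in NSCPs was 8.66-fold (difference -3.11, SE 0.55, adjusted p = 0.00193 in limma), with a 95% interval from 3.62-fold to 20.7-fold, and the fold rests on a background level. Without SKP isolate 2 it was 14.5-fold, and without SKP isolate 1 it was 5.74-fold; the call held in each case. Of the 8 other PRDM genes measured, Prdm6 was called lower (7.96 ± 0.87 in SKPs, 5.86 ± 0.36 in NSCPs, SD, n = 3 each; adjusted p = 0.00256 in limma), and Prdm4, with the highest mean, had a difference of 0.30 that did not pass in limma (adjusted p = 0.0637). It passed in 5 of 17 alternatives, with adjusted p from 0.00581 (arrays centred on their medians) to 0.0486 (array weights) in limma. The median difference of these 8 genes was 0.10, and with arrays centred on their medians 2 of them were higher and 1 lower.

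Other members varied between the same SKP isolates. Trps1 was also highest in isolate 1 and lowest in isolate 2, whereas Fap was highest in isolate 2. The mean of 11 leukocyte markers was 9.50, 8.75 and 9.05 in SKP isolates 1, 2 and 3, and between 4.94 and 5.14 in the NSCP arrays. Of the 10 leukocyte markers above background in SKPs, 9 were highest in isolate 1 and 8 lowest in isolate 2. Ptprc, the pan-leukocyte phosphatase gene, stood at 10.83, 8.91 and 9.90. In NSCPs it was at 4.21, 4.19 and 3.88. The T cell gene Cd3e stood within background in both cultures. The papilla genes Rspo3, at 10.01, 7.79 and 9.23, and Sox2, at 8.54, 6.65 and 7.77, had the same order over SKP isolates 1, 2 and 3, and were picked for this after their values were seen. Lef1, Fgf7, Hapln1, Nt5e, Gpx3 and Pparg of the gene lists, also picked with values seen, had that order too, and Prdm6 had the reverse. The order was thus not particular to leukocyte markers, and its share over all genes was not counted. Leukocyte markers moved with Prdm1 both between the cultures and between the SKP isolates, and their part in the level of Prdm1 was not tested.

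**Figure D3:**
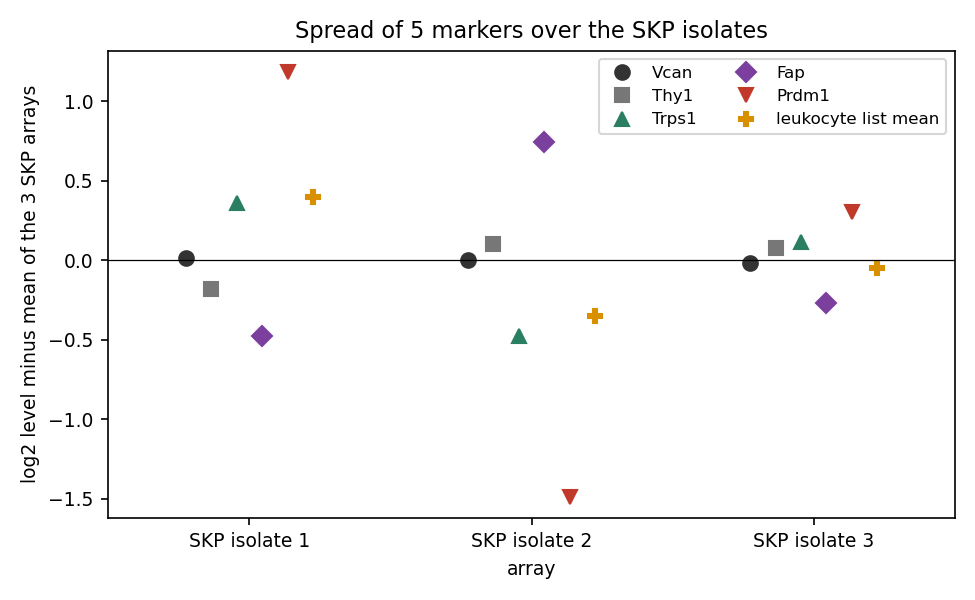
Deviation of each SKP array (x axis) from the mean of the 3 SKP arrays, on the log2 scale, for 5 markers and for the mean of the leukocyte list. Prdm1 spans the widest range, from 9.22 in isolate 1 to 6.55 in isolate 2, Fap lies highest in isolate 2, and Vcan stays within 0.03.

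Corin encodes a membrane serine protease that processes atrial natriuretic peptide in the heart and, in the dermal papilla, restrains agouti signalling to pigment cells. Its values were 5.58, 5.78 and 6.14 in SKPs and 4.66, 5.22 and 5.18 in NSCPs. The groups did not overlap, yet the SKP arrays lay just above background and the NSCP arrays below it. The fall was 1.75-fold (difference -0.81, SE 0.20, adjusted p = 0.0106 in limma) and did not pass the test against a 2-fold change (adjusted p = 1 by limma's treat). With arrays centred on their medians, which moved the median of all genes by 0.20, the difference was -0.60.

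The natriuretic and agouti genes around Corin were split, with 3 of 9 higher and 3 lower in NSCPs (5 and 2 with arrays centred on their medians) and a median difference of 0.27. Npr3, the clearance receptor for natriuretic peptides, rose by 3.06 to 8.90 ± 0.29 (SD, n = 3), and Nppc, the gene of C-type natriuretic peptide, by 1.26. Npr2, the receptor of that peptide, fell from 8.83 ± 0.04 to 6.53 ± 0.19 (SD, n = 3 each). Asip, the agouti gene, had a difference of 0.27 (adjusted p = 0.0923 in limma) at levels near background, and was named for its role, with its value seen.

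Prom1 encodes prominin-1, a pentaspan protein of membrane protrusions. It lay at 3.58, 3.84 and 3.70 in SKPs and at 3.29, 3.43 and 3.48 in NSCPs. All 6 values were within background, although the groups did not overlap. The difference of -0.31 missed the threshold in limma (adjusted p = 0.0789), with a 95% interval from -0.59 to -0.02. It passed after renewed quantile normalization (-0.43, adjusted p = 0.0186 in limma) and with array weights (-0.25, adjusted p = 0.0479 in limma). Of 3 measured partners, Ttyh1, which encodes a membrane protein found with prominin-1 in glia-like cells, rose by 4.11 to 10.07 ± 0.07 (SD, n = 3), and the relative Prom2 had a difference of 0.28 (adjusted p = 0.105 in limma). With arrays centred on their medians all 3 partners were higher. Prom2 was named as the sister gene of Prom1, with its value seen.

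Fap and Dpp4 encode sister serine proteases that cut after proline, and their genes lie in a row with only the glucagon gene Gcg between them among protein-coding genes of the RefSeq table. Fap is the fibroblast activation protein of remodelling mesenchyme, and Dpp4 marks fibroblasts of the upper dermis and fascia. Fap stood at 9.19, 10.41 and 9.40 in SKPs and at 3.38, 3.93 and 3.30 in NSCPs. Every SKP array was high, with a 2.32-fold spread among them, and every NSCP array was within background. The fall was 70.1-fold (difference -6.13, SE 0.31, adjusted p = 1.11e-06 in limma), and the fold rests on a background level. Dpp4 stood at 4.32, 4.69 and 3.94 in SKPs and at 4.10, 4.76 and 4.67 in NSCPs. Its groups overlapped, all arrays were within background, and the difference of 0.19 did not pass in limma (adjusted p = 0.522), with a 95% interval from -0.33 to 0.72.

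The genes beside Fap had smaller differences. Gcg was within background in both cultures at 5.09 ± 0.15 in SKPs and 5.39 ± 0.39 in NSCPs (SD, n = 3 each). On the other side of Fap, Ifih1, a sensor of viral RNA, was lower, with a difference of -0.70 (adjusted p = 0.0115 in limma), and Gca had a difference of 0.62 (adjusted p = 0.0636 in limma). On the far side of Dpp4, Psmd14 was higher in NSCPs by 0.91 (adjusted p = 0.000223 in limma). Tbr1, within background in both cultures, was higher by 0.40. These neighbours were chosen by position, with their values seen. Of 7 further proline-specific peptidase genes 4 were lower and 1 higher in NSCPs (2 lower and 2 higher with arrays centred on their medians), with a median difference of -0.45. The largest differences were -1.10 for the lysosomal Dpp7, 0.85 for the cytosolic Prep and -0.76 for Dpp6, a channel subunit without protease activity. Dpp6 fell from 5.91 in SKPs to 5.15 in NSCPs, a mean within background.

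**Figure D4:**
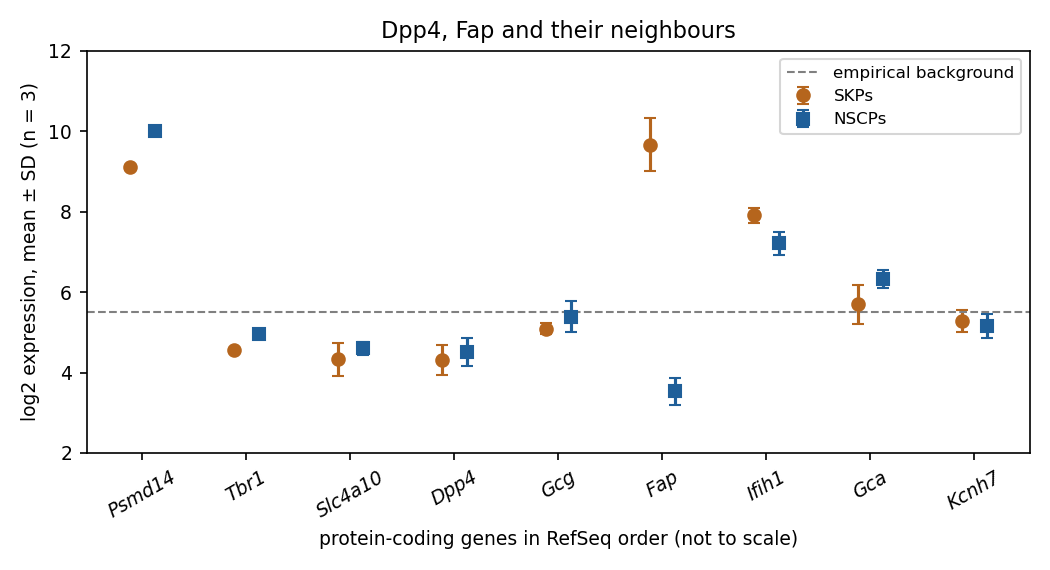
Log2 expression (mean ± SD, n = 3) of Dpp4, Fap and the protein-coding genes beside them in RefSeq order, with SKPs as circles, NSCPs as squares and the empirical background as a dashed line; spacing is not to scale. Fap is the one gene of the row with a wide gap between the cultures, 9.67 against 3.54, while Tbr1, Slc4a10, Dpp4, Gcg and Kcnh7 lie within background in both.

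Thy1 encodes a small GPI-anchored surface protein of fibroblasts and of several other cells, among them neurons and rodent T cells. Antibodies against it are commonly used to remove fibroblasts from Schwann cell cultures, and the sources used here do not say whether that was done. Its level was 11.65, 11.93 and 11.91 in SKPs and 6.28, 6.14 and 6.54 in NSCPs. SKPs were uniformly high, and all NSCP arrays lay above background but far below SKPs. The fall was 45.6-fold (difference -5.51, SE 0.15, adjusted p = 5.66e-08 in limma), with a 95% interval from 36.1-fold to 57.6-fold. Among 6 genes of Thy-1 ligands and other anchored or surface proteins, 4 were lower and 2 higher in NSCPs, with a median difference of -2.85. The integrin gene Itgb2, which leukocytes use to bind Thy-1 (-3.95), the ectonucleotidase gene Nt5e (-3.61) and Ly6e (-3.22) were lower, Nt5e to a mean within background. Itgam, also lower (-2.49), is a member of the leukocyte list too. The higher genes were Sdc4 (1.53) and Cd24 (1.73).

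The wider programme of the papilla was read from 36 further genes. Of these 20 were lower and 8 higher in NSCPs (19 and 11 with arrays centred on their medians), with a median difference of -1.45 against 0.14 for all genes. Over all genes 18.6% were lower and 25.2% higher, so the share of higher genes in this list did not exceed that of all genes. The T-box gene Tbx15 of back dermis (-6.11), the growth factor gene Igf1 (-6.09) and the Wnt amplifier gene Rspo3 (-5.73) fell most among members lower in NSCPs, all to means within background. The higher members were Sox2, Sox18, Alpl, Crabp2, Hey1, Hhip, Fst and Sostdc1, of which Sox18 and Hhip were within background in both cultures. Among them are genes often used to mark the condensate or papilla: Sox2 was higher by 3.00, at 10.65 ± 0.05 in NSCPs and 7.65 ± 0.95 in SKPs, and Alpl, the alkaline phosphatase gene used to stain papillae, by 0.64, at 6.29 ± 0.16 and 5.66 ± 0.23 (SD, n = 3 each). Sostdc1, the gene of a secreted inhibitor of Wnt and BMP ligands, was higher by 5.56, from 6.09 ± 0.30 in SKPs to 11.64 ± 0.12 in NSCPs (SD, n = 3 each). Sox2 is also a gene of Schwann cell precursors. Naming Sox2, Alpl and Sostdc1 was decided after their values were seen.

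Markers of dermal layers went the same way as Fap and Thy1. All 7 measured papillary dermis markers were lower in NSCPs, with a median difference of -1.79, led by Gpx3 (-3.59), the podoplanin gene Pdpn (-3.21) and the Wnt inhibitor gene Apcdd1 (-1.80). Of 7 reticular and hypodermal markers 6 were lower and 1 higher (5 lower with arrays centred on their medians), with a median of -2.60, and Mgp (-7.62), Fabp4 (-4.33) and Pparg (-3.82) fell to means within background. All 7 papillary genes had SKP means above background, unlike Dpp4.

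**Figure D5:**
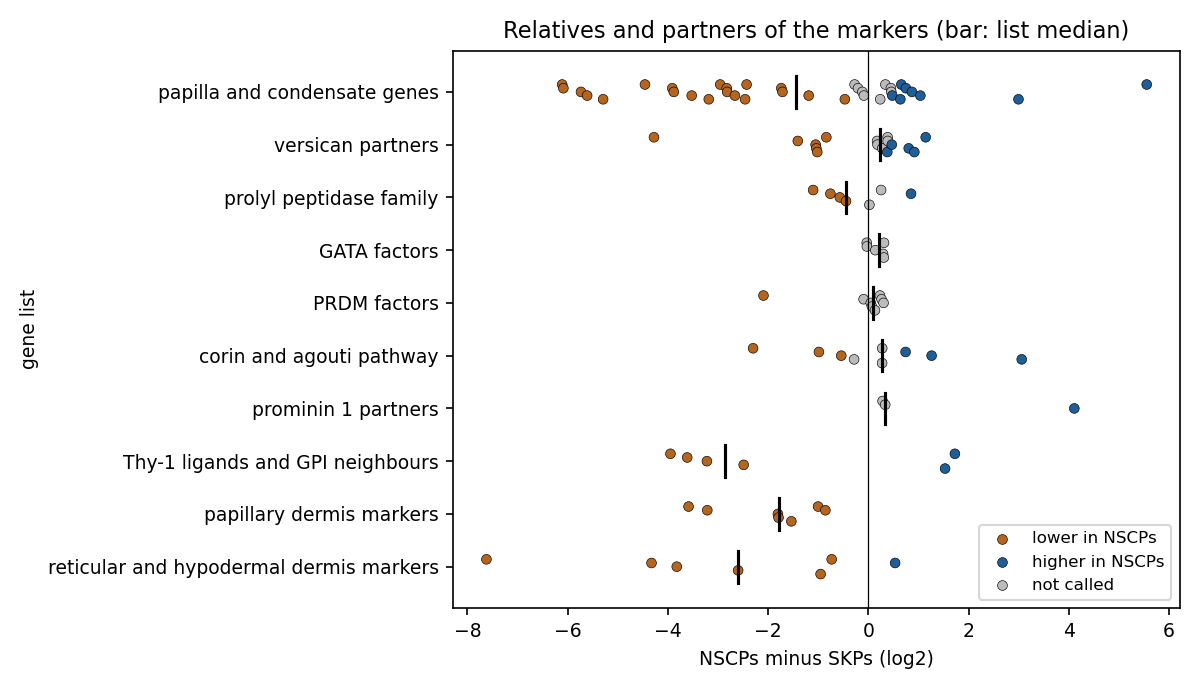
Difference between the cultures (NSCPs minus SKPs, log2) of every measured gene in 10 lists of relatives and partners of the markers, coloured by the call at an adjusted p of 0.05, with the list median as a bar. The dermal lists and the papilla list lie mostly to the left, with medians from -2.60 to -1.45, the list of Thy-1 ligands and GPI-anchored neighbours has the lowest median, -2.85, and the GATA and PRDM lists lie near 0.

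To check the cultures against their labels, 10 dermal fibroblast markers were all above background in SKPs and all lower in NSCPs. Of the Schwann lineage markers 8 of 8 measured were higher in NSCPs, but 7 of them were above background in SKPs too. The Schwann list averaged 7.44 to 7.64 in SKP arrays and 11.03 to 11.15 in NSCP arrays. The fibroblast list averaged 12.08 to 12.14 in SKP arrays and 7.91 to 8.18 in NSCP arrays. In NSCPs Pdgfra, Dcn, Lum and Prrx1 were within background, while Col1a1, Col1a2, Col3a1, Twist2, Fbn1 and Postn were above it. Col1a1 stood at 11.80 in NSCPs against 12.75 in SKPs and Postn at 12.30 against 13.13. Twist2 fell further, to 6.66 from 10.21. The leukocyte list had 9 of 11 members lower in NSCPs and 0 higher (0 in limma where p was left unadjusted at 0.05). Keratinocyte, endothelial, melanocyte, mural and neuronal lists averaged between 4.77 and 6.28 in every array, but single members above background differed. Mitf of the melanocyte list was lower in NSCPs (10.24 against 7.80, -2.43), as was Cspg4 of the mural list (8.75 against 5.86, -2.89), and Tubb3 of the neuronal list was higher (5.53 against 8.33, 2.80). Keratinocyte markers had 1 of 7 higher and 1 lower, endothelial 1 of 4 higher, melanocyte 2 of 6 higher and 2 lower, mural 2 of 6 lower, and neuronal 1 of 6 higher and 2 lower. These counts take in genes within background in both cultures, namely the endothelial Emcn (higher) and the neuronal Elavl4 (lower). The list for perineurial and endoneurial fibroblasts averaged 7.78 to 8.04 in SKPs and 7.42 to 7.47 in NSCPs, with 4 of 7 lower, among them Cldn1 (-5.41), and 2 higher, among them Itgb4 (3.42). The cell type markers named here and beside Prdm1 were picked with their values seen. What these cells contributed to the markers was not tested.

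The genes whose profile over the 6 arrays came nearest to each marker were found by the root mean square distance between mean-centred log2 values. The search left out the other markers and genes with provisional symbols, so 1 marker could not appear as the nearest gene of another. For Vcan they were Spp1 (osteopontin, distance 0.07), Runx1t1 (0.16) and Lpl (0.16). Spp1, for example, stood at 12.88, 12.76 and 12.95 in SKPs and at 6.48, 6.39 and 6.24 in NSCPs. For Thy1 they were the collagen gene Col8a1, the basement membrane gene Frem1 and the cathepsin K gene Ctsk, each at 0.14. For Fap they were the transcription factor gene Osr1 (0.27), the chemokine gene Ccl6 (0.29) and the clusterin gene Clu (0.34), and for Trps1 they were Steap2 (0.17), Marchf1 (0.18) and Slc7a2 (0.19). Prdm1 had Alox5, the 5-lipoxygenase gene of leukocytes, nearest (0.25), which stood at 9.20, 7.25 and 8.39 in SKP isolates 1, 2 and 3, followed by Mrgprx3 (0.28) and Pappa2 (0.29). Corin was nearest to Tex26 (0.09), Itm2c (0.12) and Hk2 (0.12). Prom1 was nearest to Farp2, Gyg1 and Gcdh (0.04 each), and Dpp4 to Ppm1e, Cfap97d2 and Fam3b (0.09 each). Both of these markers were within background throughout, so their nearest genes share small deviations only. These likenesses describe 6 arrays that fall into 2 groups.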

How the data were processed

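The deposited log2 values came from RMA in the oligo package, per the submitters' processing notes, with neither versions nor a genome build named there. Because RMA makes the arrays' distributions nearly equal, a change common to all genes of 1 culture is not visible. Of 36685 probe sets the platform table names 18511 with 1 symbol, 575 with several and none of the other 17599; 18394 of the 18511 were matched to RefSeq (GRCr8) by Entrez ID. For genes with several probe sets the brightest was kept. Groups were compared by lmFit and eBayes of limma 3.58.1 (R 4.3.3, 2-sided, 18166 genes). The procedure was also run on simulated arrays with independent noise and few changed genes. That run checked the code and does not measure error rates in these data. Python 3.11.15 with matplotlib 3.10.9 made the figures. No depth exists for arrays; their number, 3 per group, limits the precision. From 63.8% to 65.8% of genes per array exceeded background, and correlations across genes were 0.984 to 0.993 within groups and 0.872 to 0.888 between them. The members and gene lists were chosen with earlier results of these data known. The rule for named genes took the 8 markers, from each of the 10 lists of relatives and partners the 3 called genes with the largest difference (with fewer than 3 called, those and the one with the highest mean), and the 3 nearest profiles per marker; other genes named, cell type markers included, were picked outside it with their values seen. Alternatives were each array left out, the replicate number as a block, 2 scalings, 2 filters, other probe set rules, priors, weights and thresholds. Same-numbered arrays shared only a number: deviations from group means correlated at 0.03 to 0.06 over 12054 genes.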

Additional observations from a re-analysis of the deposited data

How the results depend on the processing

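All 17 alternatives were run. Leaving out each array in turn gave 6 markers lower in NSCPs every time, with 48 to 50 list genes lower and 19 to 23 higher, and so did the replicate block, which changed no call among the 8 markers (6 lower, 0 higher with the replicate number as a block, in limma) and gave 51 lower and 21 higher genes in the lists. Markers lower numbered 3 among genes with a mean above the median of all genes, because fewer markers were tested there, and 7 with renewed quantile normalization or array weights, which added Prom1. Corin missed an adjusted p of 0.01 (0.0106) and the 2-fold test. Over the 10 lists, 51 of 105 genes were lower and 21 higher; limma's treat gave 28 and 6, array weights gave 33 higher, and centring arrays on their medians gave 37 higher. That centring moved the split of calls over all genes from 57.5% to 75.1% higher, with 8148 of the 18166 genes called higher and 2704 lower. Prdm4 passed in 5 of the 17. Gata6, not called under any setting, turned from -0.03 to 0.16 with renewed quantile normalization, to 0.17 with median centring, and ranged from -0.136 to 0.0434 when each array was left out, with 0.00648 without SKP replicate 2, 0.0434 without NSCP replicate 1 and 0.00231 without NSCP replicate 3; the cause was not tested. Among 25 named list genes, 400 of 418 values kept their direction and side of the threshold.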
